A study of Arabidopsis thaliana with 18 samples.

Results

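The dry-seed comparison set 3 libraries of ΔDS seeds against 3 libraries of +WT seeds of Arabidopsis thaliana, before any water uptake. Every gene with a mean of at least 10 normalised counts in the authors' dry table was taken, which gave 15625 of the 33602 genes listed. Both groups were dry seeds, listed with no treatment. The titles call both genotypes complemented. The labels do not name the background line, the promoter of the introduced copy, the number of independent lines or the seed age. The gene, known from the study, is FLOE1 (AT4G28300). Its protein forms condensates in embryos as they take up water, and ΔDS is a copy without the stretch rich in aspartate and serine. The other 12 of the 18 libraries come from seeds imbibed for 5 days at 4 °C and 4 hours at 22 °C, with or without 220 mM NaCl, and serve only as a short reference. The labels name the material as dry seeds, while the extraction text speaks of seeds and siliques for the series as a whole. Whether replicates came from separate plants is not stated, so p-values measure the spread between these samples, which may be technical.

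A dry Arabidopsis seed is mostly embryo, and its cells are filled with storage proteins, oil bodies and protectants laid down during maturation. Its messenger RNAs were made before drying and are stored, so a dry-seed profile is a record of late maturation and of what survived drying and storage. Seed storage proteins are the cruciferins (12S globulins) and the small sulfur-rich 2S albumins. Late embryogenesis abundant (LEA) proteins and dehydrins protect membranes and proteins without water, and small heat shock proteins hold unfolding proteins. In bulk tissue, fewer cells of one type and less RNA per cell cannot be told apart.

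The deposited table gives a mean over the 6 libraries, a log2 fold change with its standard error (SE) and an adjusted p for each gene, with no value per library. A positive fold change was read as higher in ΔDS from the order of names in the titles, since the header states no direction, and the opposite order would turn every sign. Because the mean is a sum of whole reads weighted by library size, the read count of each library could be worked back for 15541 of the 15625 genes. Libraries are called a, b and c within each genotype in order of size factor, because their replicate numbers are unknown. Size factors ran from 0.854 to 1.102 in +WT and from 0.987 to 1.158 in ΔDS, and the libraries held 12531686 to 16979633 reads in the genes worked back, which make up 56.0% of all normalised counts. Values per library below are reads divided by these factors, and means are given ± SD over 3 libraries.

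FLOE1 (AT4G28300) itself was read first, although its expected level in each genotype is not given, so it checks neither labels nor direction. It had 6429, 7893 and 9214 reads in the +WT libraries and 183, 198 and 199 in the ΔDS libraries. That is 8288 ± 726 normalised counts in +WT and 180 ± 7.15 in ΔDS, with no overlap. In the authors' deposited table the log2 fold change was -5.53 ± 0.090, the largest decrease of any gene with a mean of at least 10. The labels do not say how reads of the shortened copy were counted, so transcript level and counting cannot be told apart. Of the nearest measured neighbours, the ubiquitin ligase gene RMA2 (AT4G28270) fell in the authors' deposited table (-0.35 ± 0.090, adjusted p = 0.00323), and AT4G28260, AT4G28330 and AT4G28360 did not pass. The relatives AT5G14540 (FLOE2) and AT3G01560 (FLOE3) were not called either, at -0.01 ± 0.084 and -0.09 ± 0.086 in the authors' deposited table.

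A gene is called where the authors' adjusted p is under 0.05. By that rule 984 of the 15625 genes differed, or 6.3%, with 477 higher in ΔDS (3.05%) and 507 lower (3.24%). Most differences were small, with a median of 1.27-fold among called genes, and 95 genes reached 2-fold, 72 of them higher and 23 lower. At an unadjusted p under 0.05 there were 2666 genes. Of the 939 called genes with values per library, the genotypes did not overlap in 929, against 26.5% of all genes worked back. Limma on the values per library called 622 genes higher and 583 lower. The limma count changed with the library left out, though such fits also have fewer libraries. Without ΔDS library a limma called 286 higher and 261 lower, without ΔDS library b 278 and 257, and without +WT library a 720 and 667. Scaled by library totals, which moves all fold changes up by 0.08 on the log2 scale, 82.9% of calls were higher instead of 48.5%. This shift is a single value for all genes, from summed group means implied by each mean and fold change, with SEs unchanged. Abundant genes weigh most in those sums, so the fall of abundant genes itself helps to set the shift.

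**Figure D1:**
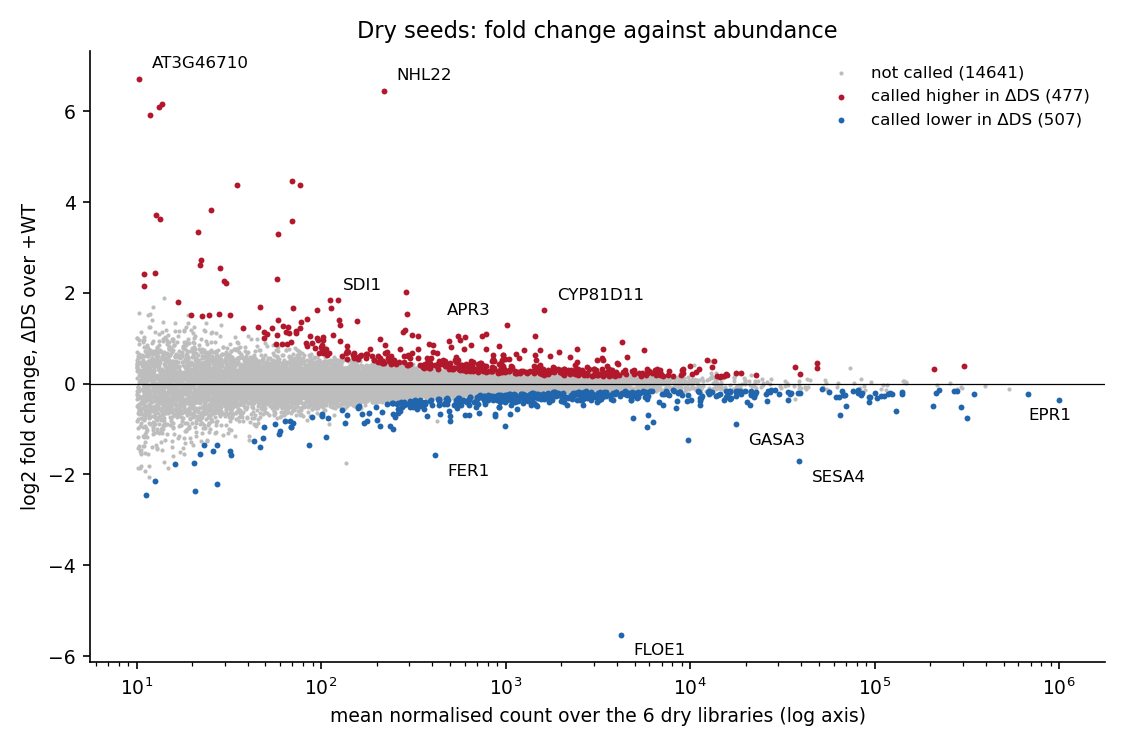
Log2 fold change of ΔDS over +WT (y axis) against the mean normalised count over the 6 dry libraries (x axis, log scale) for each of the 15625 genes, as points coloured by call. Low-abundance calls are mostly above 0, while at a mean of 10000 or more 94 of 271 genes lie below 0 as called genes and 22 above.

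Higher and lower calls sat at different levels of abundance. In the class with means of 10 to 100 normalised counts, 60 of 4505 genes rose and 26 fell. From 100 to 1000 there were 222 higher and 146 lower of 7612 genes, and from 1000 to 10000 the order turned, with 173 higher and 241 lower of 3237. Among the 271 genes at 10000 or more, 22 rose (8.12%) and 94 fell (34.7%), by a median of 1.17-fold over both directions. This top class held 57.0% of all normalised counts, and the whole class had a median log2 fold change of -0.08. The power to call also differs by class, since the median SE fell from 0.357 in the lowest class to 0.0502 in the highest.

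Per base of exon, the most abundant transcript was LCR67 (AT1G75830), a small cysteine-rich peptide of the plant defensin family, at 48566 on a scale of length-scaled counts that sums to 1000000 over all genes with an annotated exon length. It was followed by the dehydrin gene RAB18 (AT5G66400) at 33181, the proline-rich extensin gene EPR1 (AT2G27380), known from the endosperm, at 22312, and the LEA gene GEA6 (AT2G40170), also called EM6, at 20592. The 2S albumin gene SESA5 (AT5G54740) came next at 20262. LCR67 and GEA6 did not pass the test, at -0.06 ± 0.063 and -0.13 ± 0.069 in the authors' deposited table, while RAB18 fell (-0.22 ± 0.050) and so did EPR1 (-0.35 ± 0.075, adjusted p = 1.87e-04). EPR1 alone took 3.76% of all normalised counts and the 10 most abundant genes took 16.9%. One of these 10, the 18S ribosomal RNA gene AT3G41768, rose in the authors' deposited table (0.38 ± 0.050). The labels do not say how ribosomal RNA was removed.

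Storage protein genes fell in 9 of 13 cases and none rose, with a median log2 fold change of -0.47 against 0.00 over all genes tested. Of all genes 3.24% fell. At a mean of 10000 or more, where most storage genes lie, 34.7% of genes fell and the median was -0.08. The list as a whole took an implied 6.74% of the normalised counts of +WT and 5.64% of those of ΔDS. SESA4 (AT4G27170) had 63385, 57651 and 57835 normalised counts in the +WT libraries and 18348, 16149 and 20248 in ΔDS. The groups stood far apart, and the authors' deposited table gave -1.71 ± 0.070, the largest decrease of the list. SESA2 (AT4G27150) had 6344, 6236 and 5759 in +WT and 3784, 3619 and 3492 in ΔDS, and the authors' deposited table gave -0.75 ± 0.058 (adjusted p = 5.78e-35). SESA1 (AT4G27140) had 3187, 3298 and 2676 against 2248, 2135 and 2205, at -0.47 ± 0.076 in the authors' deposited table. For both genes the groups did not overlap, as in 26.5% of all genes worked back. The 4 albumin genes of the chromosome 4 cluster all fell, by unequal amounts.

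The cupin gene AT1G03890, a relative of the cruciferins, had 7966, 7487 and 7696 normalised counts in +WT and 4200, 4007 and 3655 in ΔDS. AT1G03890 did not overlap between genotypes, at -0.97 ± 0.060 (adjusted p = 5.65e-55) in the authors' deposited table, and the cruciferin gene CRU2 (AT1G03880) stood at -0.60 ± 0.043 there. CRU3 (AT4G28520) changed less, at -0.22 ± 0.050 (adjusted p = 4.10e-04) in the authors' deposited table. Other abundant storage genes were not called, among them the vicilin gene PAP85 (AT3G22640) at -0.11 ± 0.042 and the cruciferin gene CRA1 (AT5G44120) at -0.07 ± 0.046 in the authors' deposited table. The cupin genes AT4G36700 and AT2G18540 were at -0.05 ± 0.044 and -0.03 ± 0.043 there. AT4G36700 had 14860, 14967 and 14724 in +WT and 14345, 14085 and 14599 in ΔDS, close together though without overlap. Storage genes thus spanned -1.71 to -0.03. Scaled by library totals 8 still fell, and 9 fell with the length trend removed. How reads were shared among similar albumin genes is not given, so single albumin values are uncertain.

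The albumin genes lie in tandem on chromosome 4, and the 250 bases before their annotated starts are shown because this block of genes fell together. Sequences are RefSeq TAIR10.1, 5′ to 3′ on the coding strand, with capitals for matches on either strand to ACGTG (the core of the element bound by abscisic acid factors) or CATGCA (the core of the RY element bound by seed maturation factors), and to TATAAA or GAANNTTC (N is any base, the heat shock element).
SESA1, chr4:13607079-13607328, plus strand: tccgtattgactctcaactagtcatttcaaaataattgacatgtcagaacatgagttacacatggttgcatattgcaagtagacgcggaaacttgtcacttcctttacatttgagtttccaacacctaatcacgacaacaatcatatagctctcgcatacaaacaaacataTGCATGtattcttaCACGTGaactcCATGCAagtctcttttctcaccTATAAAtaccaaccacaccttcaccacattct
SESA2, chr4:13609091-13609340, plus strand: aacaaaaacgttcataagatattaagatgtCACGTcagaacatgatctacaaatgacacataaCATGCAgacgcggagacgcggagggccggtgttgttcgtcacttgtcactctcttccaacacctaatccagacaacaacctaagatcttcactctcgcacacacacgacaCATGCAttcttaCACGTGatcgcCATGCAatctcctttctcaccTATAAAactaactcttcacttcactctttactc
SESA3, chr4:13611546-13611795, plus strand: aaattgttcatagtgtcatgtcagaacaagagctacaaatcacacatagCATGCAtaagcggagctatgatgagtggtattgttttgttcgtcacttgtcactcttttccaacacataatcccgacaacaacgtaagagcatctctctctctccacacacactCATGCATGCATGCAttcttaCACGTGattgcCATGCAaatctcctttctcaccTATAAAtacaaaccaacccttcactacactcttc
SESA4, chr4:13613346-13613595, plus strand: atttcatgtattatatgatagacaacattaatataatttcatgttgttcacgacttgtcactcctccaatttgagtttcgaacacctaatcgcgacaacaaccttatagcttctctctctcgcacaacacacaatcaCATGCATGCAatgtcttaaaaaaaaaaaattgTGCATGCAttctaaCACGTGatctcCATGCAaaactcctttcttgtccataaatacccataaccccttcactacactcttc
All 4 windows held ACGTG, on both strands of a shared CACGTG, and CATGCA, with 2, 3, 7 and 6 overlapping matches on both strands from SESA1 to SESA4. SESA4, which fell furthest, was the one without TATAAA.

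The same letters were counted in 15228 promoters of protein-coding genes. ACGTG was in 44.0% of the 496 promoters of genes called lower, in 23.2% of the 453 called higher and in 23.5% of all. CATGCA was in 16.7% of the promoters of genes called lower, 7.51% of those called higher and 7.14% of all. TATAAA was in 47.4%, 49.0% and 45% in that order, and GAANNTTC in 7.46%, 8.61% and 9.46%. Genes called lower are more often abundant, and abundant genes hold ACGTG more often, so the share is also given within classes. At a mean of 10000 or more ACGTG was in 63.4% of 93 promoters of genes called lower and 41.5% of the other 171. From 1000 to 10000 the shares were 42.7% of 241 and 24.7% of 2971, from 100 to 1000 they were 36.2% of 138 and 21.9% of 7355, and from 10 to 100 they were close, at 25.0% of 24 and 22.3% of 4235. For CATGCA the shares from the lowest class to the highest were 16.7%, 15.2%, 12% and 31.2% in genes called lower and 7.82%, 6.27%, 6.33% and 14.0% in the others. These are counts of letters, not of bound sites.

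Oil body and LEA genes moved by smaller amounts than the storage genes. Oil body genes fell in 5 of 8 cases with a median of -0.17, among them the peroxygenase gene ATS1 (AT4G26740), with 15808, 15055 and 14558 normalised counts in +WT and 12460, 12058 and 12913 in ΔDS. LEA genes other than dehydrins fell in 15 of 21 cases and none rose, with a median of -0.20 and a range of -0.49 to 0.06. Of all genes 3.24% fell. At a mean of 10000 or more, where most listed oil body and LEA genes lie, 34.7% of genes fell and the median was -0.08. AT3G02480 had 9328, 8082 and 7513 normalised counts in +WT and 5931, 5755 and 6319 in ΔDS, without overlap. These counts differed with scaling. By library totals 7 LEA and 2 oil body genes fell, and 11 and 3 fell with the length trend removed. The LEA list held an implied 8.01% of the normalised counts of +WT and 7.48% of those of ΔDS. Its own fall thus enters the totals, which cannot serve as an independent check on it. Of 5 dehydrin genes RAB18 and XERO1 (AT3G50980) fell, 1 of them by library totals, and XERO1 had 42486, 38056 and 33377 in +WT against 29026, 28563 and 31206 in ΔDS. Searched by product name, 20 of 45 LEA products fell and none rose, and by library totals 10 fell and 2 rose.

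Of 13 seed maturation transcription factors 1 was called, a share near the 6.3% of all genes. This was ABI5 (AT2G36270), the bZIP factor of the abscisic acid response, with 27831, 27928 and 27910 normalised counts in +WT and 24608, 24961 and 24781 in ΔDS. Its libraries agreed closely, so a change of -0.17 ± 0.041 in the authors' deposited table passed (adjusted p = 0.00161), though not when scaled by library totals. ABI3 (AT3G24650) and FUS3 (AT3G26790), 2 master regulators of maturation, were at -0.04 ± 0.064 and 0.18 ± 0.11 in the authors' deposited table, without passing. Of 22 abscisic acid and dormancy genes E12A11 (AT1G18100, also called MFT) was the one called, and by library totals none fell and 2 rose. The dormancy gene DOG1 (AT5G45830) had 936, 898 and 809 in +WT and 746, 759 and 815 in ΔDS, which overlap. No member of the lists for gibberellin (12 measured), endoplasmic reticulum chaperones (13), RNA granules (14), seed oil synthesis (10), DNA and protein repair (16), jasmonate (6) or nuclear photosynthesis (3) was called. By library totals 2 repair and 2 RNA granule genes were called higher.

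GASA3 (AT4G09600) and GASA2 (AT4G09610), neighbours on chromosome 4 that encode small cysteine-rich peptides of the gibberellin-regulated family, were among the largest decreases of abundant genes. GASA3 had 24896, 21990 and 21827 normalised counts in +WT and 11765, 11874 and 13371 in ΔDS. GASA2 had 8755, 7464 and 8014 against 4330, 4386 and 4752. In both the groups stood far apart, and the authors' deposited table gave -0.89 ± 0.064 and -0.85 ± 0.065. The other measured GASA gene, AT5G14920, was at -0.52 ± 0.28 and not called in the authors' deposited table. The GASA list was written after the values were seen. AT1G47540, a scorpion toxin-like knottin gene, had 14827, 13475 and 12464 in +WT and 5440, 5618 and 6274 in ΔDS, and stood at -1.23 ± 0.069 in the authors' deposited table (adjusted p = 5.54e-68).

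Next to GASA3, 2 genes moved the other way. NHL22 (AT4G09590, chr4:6066128-6066763, plus strand), of the NDR1/HIN1-like family, had 2.3, 9.1 and 3.6 normalised counts in +WT and 454, 401 and 441 in ΔDS. AT4G09595 (chr4:6067926-6072006, plus strand), annotated as a pseudogene, had 90.2, 123 and 129 in +WT and 442, 506 and 435 in ΔDS, at 2.01 ± 0.15 in the authors' deposited table (adjusted p = 2.49e-37). Just upstream AT4G09584, with a mean of 8.60 and so outside the set, was also called higher (adjusted p = 1.01e-04 in the authors' deposited table). The genes that flank this block, AT4G09580 and AT4G09620, were at 0.11 ± 0.17 and -0.06 ± 0.18 in the authors' deposited table and were not called. The change was thus bounded by neighbours without a call, over genes from chr4:6059809 to chr4:6075645 in TAIR10.1. The promoter of GASA3 is shown because it lies inside this block, with the same motifs in capitals, here 1 match to ACGTG.
GASA3, chr4:6073647-6073896, minus strand: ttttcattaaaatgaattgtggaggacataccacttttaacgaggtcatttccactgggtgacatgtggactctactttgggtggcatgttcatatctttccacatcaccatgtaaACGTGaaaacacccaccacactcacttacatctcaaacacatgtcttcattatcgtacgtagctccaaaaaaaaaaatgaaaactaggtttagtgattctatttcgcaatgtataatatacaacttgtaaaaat

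A second block lay on chromosome 3, the single run of at least 3 genes called the same way at 2-fold or more within 5 neighbouring genes. It held the UDP-glycosyltransferase genes AT3G46680, AT3G46690 and AT3G46700 and the resistance-type gene AT3G46710, from 17195318 to 17209203 in TAIR10.1. AT3G46690 had 11.7, 13.6 and 7.3 normalised counts in +WT and 106, 121 and 88.9 in ΔDS. AT3G46700 had 10.5, 8.0 and 0 against 158, 145 and 98.4. AT3G46710 had no read in any +WT library and 66 reads over the ΔDS libraries. That is at least 19.3-fold higher against a floor of 3 reads over the +WT group. Its mean of 10.3 comes from ΔDS alone, so it entered the set, and the run, only through the group where it was high. UGT76E11 (AT3G46670), which flanks the block, moved the other way, with 3062, 2844 and 2759 in +WT and 2357, 2271 and 2429 in ΔDS (-0.30 ± 0.063 in the authors' deposited table). AT3G46668, an RNA gene on the other strand that overlaps UGT76E11, rose, with 76.1, 76.2 and 65.3 against 124, 120 and 146, and reads of this pair cannot be told apart without strand. On the far side AT3G46720 had a mean of 3.51, outside the set, and stood at 5.17 ± 1.6 in the authors' deposited table. Beyond it the resistance-type gene AT3G46730 was not called, at -0.55 ± 0.51 in the authors' deposited table. Beside the albumin cluster the resistance-type gene AT4G27190 was called higher at a mean of 13.7. These blocks were singled out after the values were seen.

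Of 122 measured pseudogenes 15 rose (12.3%, against 3.05% of all genes) and 3 fell (2.46%, against 3.24%), with a median of -0.02. AT4G09595 beside GASA3 is one of the 15. Of 106 genes annotated as transcribed pseudogenes 3 rose and 3 fell (2.83% each). AT3G28945 had 16.4, 8.0 and 8.2 normalised counts in +WT and 124, 124 and 136 in ΔDS, at 3.59 ± 0.35 in the authors' deposited table. AT1G78350 had 0, 1.1 and 8.2 against 75.0, 59.9 and 67.3. Its +WT level was below the minimum mean of the set, so it entered only through ΔDS. The same held for AT4G16910, with 3.5, 2.3 and 0.0 against 34.4, 16.6 and 19.9, and for AT5G57126 and AT5G33395. Such entry can raise the share of pseudogenes called higher. All genes met the same minimum, and the size of this effect was not tested. With the length trend removed 14 rose and 5 fell. Reads of pseudogenes can be shared with their parent genes, and how the authors' counting treated them is not given, so these values are uncertain.

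**Figure D2:**
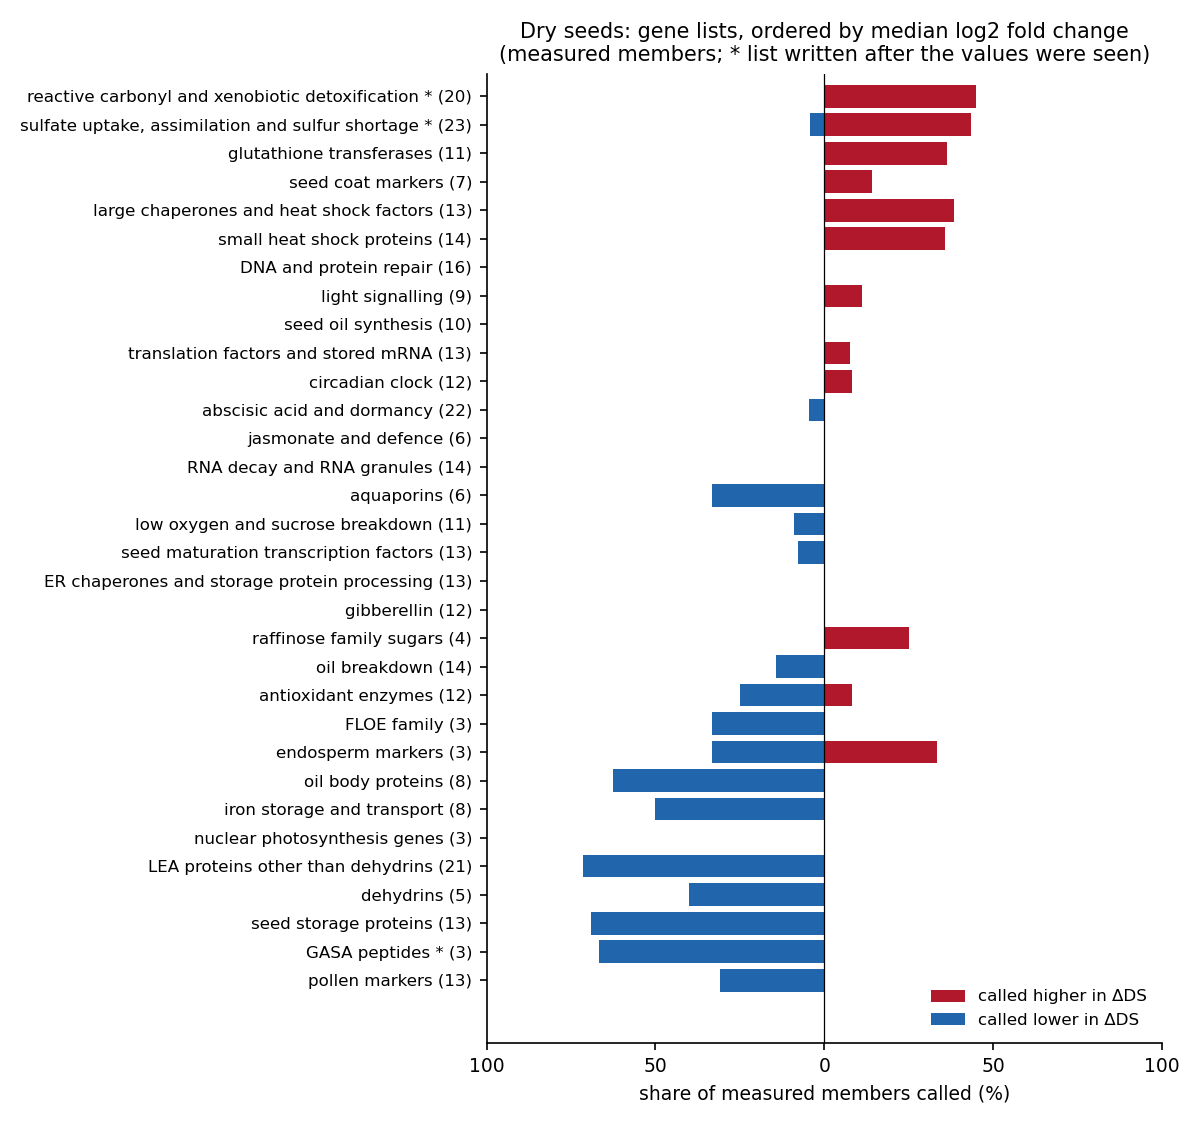
Share of measured members called higher (right, red) and lower (left, blue) in ΔDS for each gene list with at least 3 measured genes, in order of median log2 fold change, with the number measured in parentheses. Sulfur, detoxification, glutathione transferase and heat shock lists have calls to the right, and storage, LEA and oil body lists have calls to the left.

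Genes of sulfate uptake and reduction were often higher in ΔDS. Plants take up sulfate through SULTR transporters, activate it with ATP sulfurylase (APS), reduce it through adenylylphosphosulfate reductase (APR) and sulfite reductase (SIR), and fix it into cysteine with O-acetylserine (thiol) lyase. Genes of the SDI and LSU families mark sulfur shortage in leaves and roots. Of 23 measured genes in a list written after the values were seen, 10 rose and 1 fell. Over all genes 3.05% rose and 3.24% fell, and the median log2 fold change was 0.37 in the list against 0.00 over all genes. The counts were also 10 and 1 with the length trend removed, and 10 rose and none fell by library totals.

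Within sulfate activation and reduction, APR3 (AT4G21990) had 587, 646 and 553 normalised counts in +WT and 1473, 1462 and 1412 in ΔDS. APR1 (AT4G04610) had 350, 357 and 363 against 777, 776 and 677. APR2 (AT1G62180), with the most counts of the 3, had 2873, 2961 and 2981 against 5562, 5629 and 5492. None of the 3 reductase genes overlapped between genotypes. The same held for 929 of 939 called genes with values per library, and for 26.5% of all genes worked back. APR3, APR1 and APR2 were at 1.29 ± 0.083, 1.06 ± 0.10 and 0.92 ± 0.052 in the authors' deposited table. SIR (AT5G04590) and APS1 (AT3G22890) rose less, at 0.37 ± 0.054 and 0.32 ± 0.048 in the authors' deposited table. APS1 was tight within each genotype, with 5241, 5213 and 5176 in +WT and 6584, 6554 and 6383 in ΔDS. The other sulfurylase genes APS2, APS3 and APS4 were not called.

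Of the uptake and shortage genes, the root high-affinity transporter gene SULTR1;2 (AT1G78000) had 306, 359 and 354 normalised counts in +WT and 622, 656 and 674 in ΔDS. ATSDI1 (AT5G48850, also called SDI1) had 49.2, 46.6 and 50.8 against 151, 181 and 192, and its relative AT1G04770 had 199, 182 and 224 against 387, 477 and 407. LSU3 (AT3G49570) had 56.2, 35.3 and 48.1 against 137, 128 and 166, and LSU2 (AT5G24660) had 9.4, 12.5 and 13.6 against 30.4, 34.1 and 36.3. None of these 5 genes overlapped between genotypes, but all were called, and 929 of 939 called genes with values per library did not overlap. Of all genes worked back 26.5% did not overlap. In the authors' deposited table ATSDI1 was at 1.84 ± 0.22 (adjusted p = 1.03e-14) and LSU3 at 1.63 ± 0.24. The gene for EIL3 (AT1G73730, also called SLIM1), a factor of the sulfur shortage response, was at 0.12 ± 0.073 and not called there. The one gene of the list called lower was OASA1 (AT4G14880), of cysteine synthesis, with 4782, 4725 and 4843 in +WT and 4071, 4025 and 4194 in ΔDS, a call lost by library totals. SERAT2;1 (AT1G55920), SERAT2;2 (AT3G13110) and SERAT3;2 (AT4G35640), which make its substrate, were not called, at -0.02 ± 0.17, 0.18 ± 0.12 and 0.98 ± 0.56 in the authors' deposited table. The glutathione synthesis genes GSH1 and GSH2 were at -0.09 ± 0.044 and -0.05 ± 0.13 in the authors' deposited table and were not called.

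Of 20 measured genes that handle reactive carbonyls and foreign compounds, in a list also written after the values were seen, 9 rose and none fell. The other 11 were not called, 5 of them with values below 0. The counts were the same by library totals and with the length trend removed. Of all genes 3.05% rose and 3.24% fell. Searched by product name, whole families were even. Cytochromes P450 had 9 higher and 8 lower of 101, and glycosyltransferases of the UDP type 7 higher and 7 lower of 76. The cytochrome P450 gene CYP81D11 (AT3G28740) had 857, 712 and 818 normalised counts in +WT and 2476, 2317 and 2567 in ΔDS, at 1.62 ± 0.079 in the authors' deposited table. AER (AT5G16970), whose enzyme reduces alkenals from oxidised lipids, had 10932, 11266 and 11404 against 15842, 15641 and 15701. Its tandem relative AT5G16980 had 870, 975 and 977 against 1913, 1978 and 1979, and AT5G16960 rose as well. The relatives AT5G16990 and AT5G17000 were not called, at -0.17 ± 0.23 and 0.61 ± 0.25 in the authors' deposited table. CYP81D8 (AT4G37370), of the same subfamily as CYP81D11, was at -0.09 ± 0.064 there and not called. UGT74E2 (AT1G05680), a glucosyltransferase acting on an auxin precursor, had 4436, 4064 and 4123 against 7191, 7081 and 6973. The vacuolar conjugate pumps ABCC1 (AT1G30400) and ABCC2 (AT2G34660) were at 0.75 ± 0.16 and 0.64 ± 0.11 in the authors' deposited table. ABCC1 had 1405, 1985 and 2023 in +WT and 3047, 3187 and 2899 in ΔDS, so +WT library a sat below its own group. The TGA factor genes TGA6, AHBP-1B and OBF5 were not called.

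A promoter from each of these sets is shown for comparison with the albumin genes.
CYP81D11, chr3:10790554-10790803, minus strand: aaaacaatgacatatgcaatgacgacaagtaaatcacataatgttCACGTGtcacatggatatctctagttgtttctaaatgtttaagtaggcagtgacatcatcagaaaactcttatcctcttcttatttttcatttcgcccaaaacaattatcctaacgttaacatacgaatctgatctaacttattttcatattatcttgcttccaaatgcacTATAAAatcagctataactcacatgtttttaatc
APR3, chr4:11659168-11659417, minus strand: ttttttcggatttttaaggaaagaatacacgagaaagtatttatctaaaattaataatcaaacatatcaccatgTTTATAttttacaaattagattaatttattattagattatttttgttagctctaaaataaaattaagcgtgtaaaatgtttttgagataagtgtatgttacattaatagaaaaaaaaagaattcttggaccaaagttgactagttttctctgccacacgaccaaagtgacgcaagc
The CYP81D11 window held CACGTG and TATAAA, and the APR3 window held 1 match to TATAAA, on the other strand, and none to the other 3 motifs. ACGTG was in 6 of 23 sulfur promoters (26.1%) and 7 of 20 detoxification promoters (35.0%), beside 19 of 21 LEA promoters (90.5%). CATGCA was in 11 of 13 storage promoters (84.6%).

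**Figure D3:**
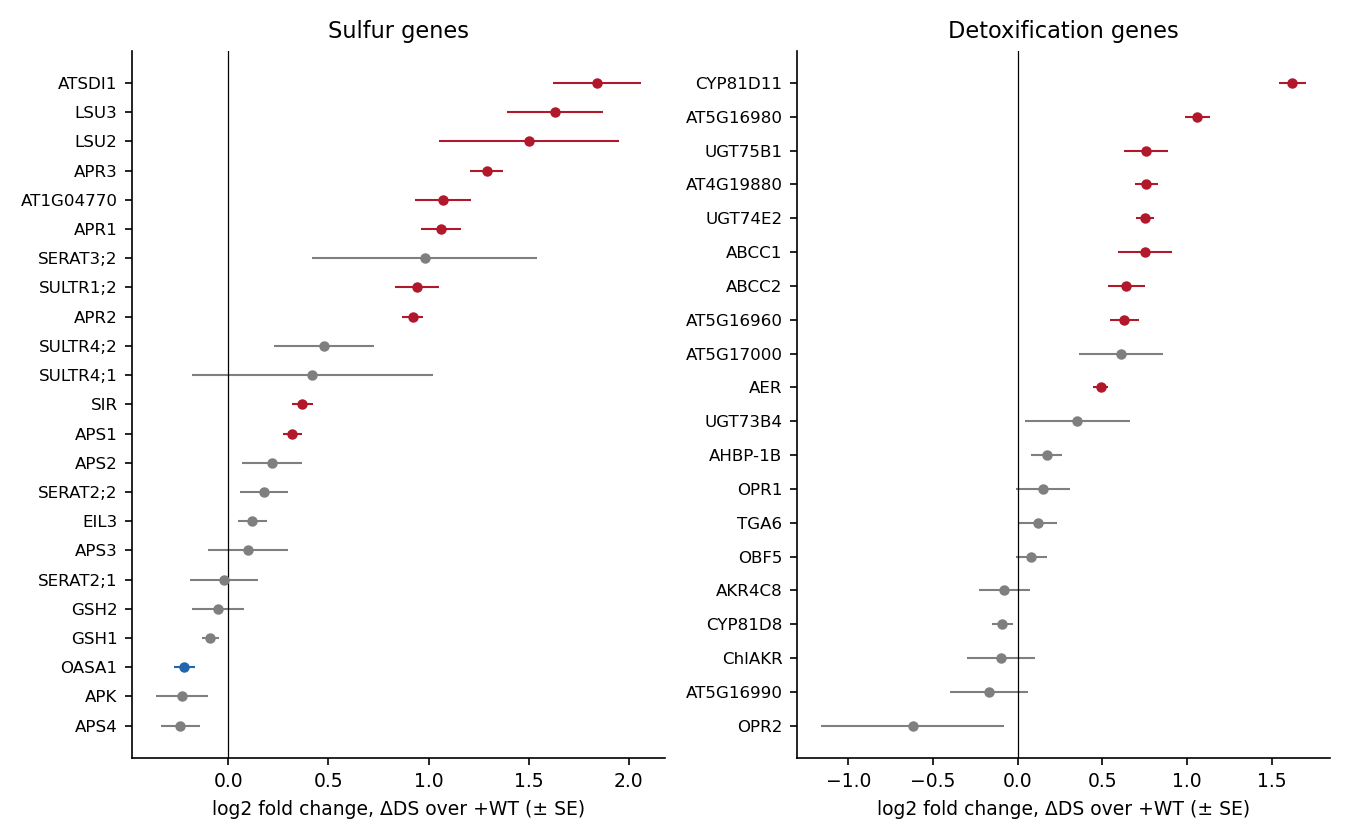
Log2 fold change of ΔDS over +WT from the authors' deposited table with its SE (bars) for 23 sulfur genes (left) and 20 detoxification genes (right), red where called higher, blue where called lower and grey where not called. ATSDI1, the LSU genes and the 3 APR genes lead the left panel and CYP81D11 the right.

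Glutathione transferases, which couple glutathione to reactive compounds, rose in 4 of 11 listed cases, where 3.05% of all genes rose. GSTU19 (AT1G78380) had 10570, 9911 and 9843 normalised counts in +WT and 14450, 14484 and 14765 in ΔDS. GSTF2 (AT4G02520) was at 0.39 ± 0.053, GSTU7 (AT2G29420) at 0.61 ± 0.075 and GSTU1 (AT2G29490) at 1.01 ± 0.22 in the authors' deposited table. Over all 32 measured products of this family 7 rose and 2 fell. Antioxidant enzymes were mixed, with 1 higher and 3 lower of 12, where 3.05% of all genes rose and 3.24% fell. The ascorbate-recycling gene DHAR1 (AT1G19570) had 2508, 2382 and 2236 in +WT and 1690, 1821 and 1855 in ΔDS, and the catalase gene CAT1 (AT1G20630) had 4856, 4849 and 4949 against 4228, 4286 and 4260. The superoxide dismutase gene CSD1 (AT1G08830) rose, at 0.42 ± 0.13 in the authors' deposited table, and by library totals 3 rose and 2 fell.

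Of 14 small heat shock protein genes 5 rose and none fell, where 3.05% of all genes rose, with a median of 0.17. By library totals 7 rose, and 6 with the length trend removed. HSP17.6II (AT5G12020) had 2752, 2472 and 2779 normalised counts in +WT and 4115, 3882 and 3880 in ΔDS. HSP21 (AT4G27670), the chloroplast member, had 608, 500 and 555 against 798, 698 and 812. The most abundant member, HSP17.6A (AT5G12030), was at 0.01 ± 0.051 in the authors' deposited table and was not called. Of 13 large chaperones and heat shock factors 5 rose, led by HSP90.1 (AT5G52640, 0.34 ± 0.049) and HSP81-2 (AT5G56030, 0.30 ± 0.048) in the authors' deposited table. HSP101 (AT1G74310), a disaggregase of the seed, had 34325, 37268 and 37510 in +WT and 42720, 43146 and 40222 in ΔDS. The seed heat shock factor gene HSFA9 (AT5G54070) was at -0.11 ± 0.050 in the authors' deposited table and was not called. With the length trend removed 2 large chaperones rose, and by library totals 9.

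Where 3.24% of all genes fell, 4 of 8 measured iron genes fell and none rose. These were the ferritin genes, whose proteins store iron, and the 4 transporters and regulators measured beside them ran from -0.17 to 0.18 in the authors' deposited table and were not called. FER1 (AT5G01600), the leaf ferritin, had 588, 636 and 631 normalised counts in +WT and 192, 207 and 222 in ΔDS, at -1.57 ± 0.11 in the authors' deposited table. FER2 (AT3G11050), the seed ferritin and the most abundant, changed least, with 25053, 23384 and 24050 against 20912, 21561 and 21433. PYE and NRAMP6, outside the list, were named by rules that take only called genes. They therefore say nothing about iron genes as a set. The iron regulator gene PYE (AT3G47640) had 634, 580 and 638 against 326, 416 and 387. NRAMP6 (AT1G15960), a metal transporter gene, had 165, 140 and 137 in +WT and 76.0, 62.7 and 57.8 in ΔDS. By library totals 2 iron genes of the list fell and 1 rose, and with the length trend removed 2 fell.

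Other single genes stood far apart. The sulfotransferase gene ST2A (AT5G07010), which acts on hydroxyjasmonate, had 1340, 1295 and 1283 normalised counts in +WT and 683, 683 and 679 in ΔDS. The peroxidase gene PRXR1 (AT4G21960) had 343, 304 and 328 against 198, 155 and 141. Among increases, the beta-galactosidase gene BGAL12 (AT4G26140) had 39.8, 62.5 and 59.0 against 188, 172 and 156, and the receptor-like kinase gene AT5G01950 had 411, 459 and 583 against 1101, 983 and 919. Receptor-like kinases rose in 11 of 115 cases (9.57%, against 3.05% of all genes) and fell in 1, and 8 rose with the length trend removed. Cytosolic ribosomal proteins, 309 genes, had 3 higher and 4 lower, and 14 higher and 3 lower by library totals. Proteasome subunits had no call among 43, and 2 higher by library totals, and pentatricopeptide repeat proteins 1 among 268.

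**Figure D4:**
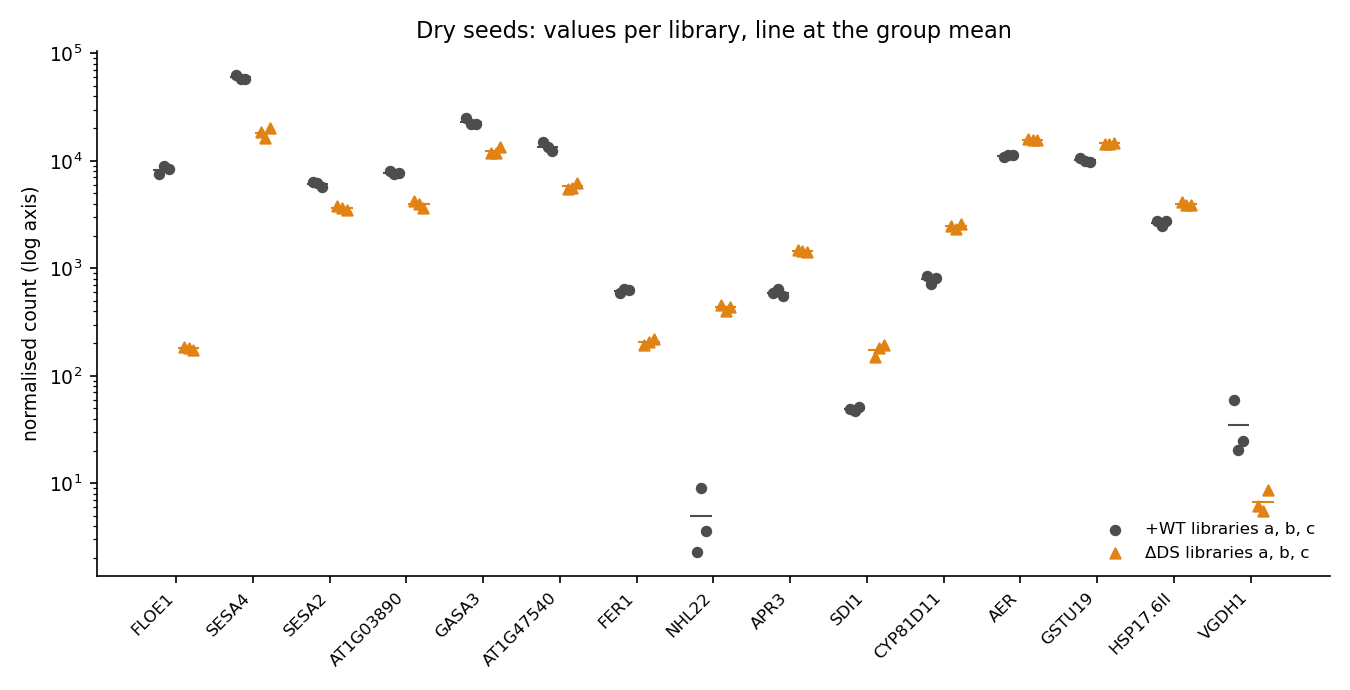
Normalised counts (y axis, log scale) of 15 genes in the 3 +WT libraries (grey circles) and 3 ΔDS libraries (orange triangles), with a line at each group mean. The groups are apart in all 15 genes, all of them called, as in 929 of 939 called genes with values per library. The +WT libraries of VGDH1 and NHL22 spread most.

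Markers of other tissues were read in the same libraries. Of 30 pollen markers 13 were measured and 4 of these fell, where 3.24% of all genes fell. Of the 13 markers 12 had a value below 0, with a median of -1.11. Their summed level was 796.3, 409.4 and 494.5 normalised counts in +WT libraries a to c and 259.3, 376.9 and 270.2 in ΔDS, so the groups did not overlap and +WT library a was highest. The pectin methylesterase gene VGDH1 (AT2G47030) had 59.7, 20.5 and 24.5 against 6.1, 5.5 and 8.6, and the polygalacturonase gene PGA4 (AT1G02790) had 89.0, 48.9 and 66.2 against 16.2, 35.0 and 25.9. By limma 4 pollen markers fell with all libraries, 2 without +WT library a or c or without ΔDS library a or c, and 6 without +WT library b. Of 9 anther tapetum markers none was measured, 8 were listed at 0 and the highest mean was 0.190. Summed seed coat markers ran from 5624 to 6041 in +WT and from 6453 to 6858 in ΔDS. Most of this sum was ARA12 (AT5G67360), which rose, with 5086, 5550 and 5505 in +WT and 6182, 6365 and 5984 in ΔDS, though not with the length trend removed. The other 6 seed coat markers were not called and ran from -1.10 to 0.27. Endosperm markers with values per library summed to 2492 to 2580 in +WT and 2294 to 2362 in ΔDS, a sum that leaves out EPR1 and is almost all ICE1 (AT3G26744), which was not called. The endosperm factor gene AGL62 (AT5G60440) rose, with 2.3, 6.8 and 12.7 in +WT and 23.3, 30.4 and 25.0 in ΔDS (1.81 ± 0.57, adjusted p = 0.0298 in the authors' deposited table). Photosynthesis markers summed to 327 to 367 in +WT and 258 to 398 in ΔDS. The part of other tissues in the changes above was not tested.

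Libraries also differed by transcript length. Genes were split into 4 classes of exon length, and the median log2 fold change rose from -0.06 in the shortest class through -0.02 and 0.01 to 0.07 in the longest. Calls followed, with 69 higher and 200 lower among the shortest and 190 higher and 49 lower among the longest. In +WT library a the median deviation from the mean of the 6 libraries ran from 0.101 in the shortest class to -0.130 in the longest. The other +WT libraries stayed within -0.016 to 0.020, ΔDS libraries a and b ran the other way (from -0.046 and -0.054 to 0.053 and 0.065), and ΔDS library c stayed near 0. The trend was thus seen in 3 of the 6 libraries. After a smooth trend over length was taken out, 408 genes were higher and 420 lower, of which 728 had the same call as before. With the trend removed 2 dehydrin, 2 GASA, 3 antioxidant and 3 pollen genes were lower, 4 listed glutathione transferases and 1 antioxidant gene were higher, 1 maturation factor was lower and 1 abscisic acid gene was higher.

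**Figure D5:**
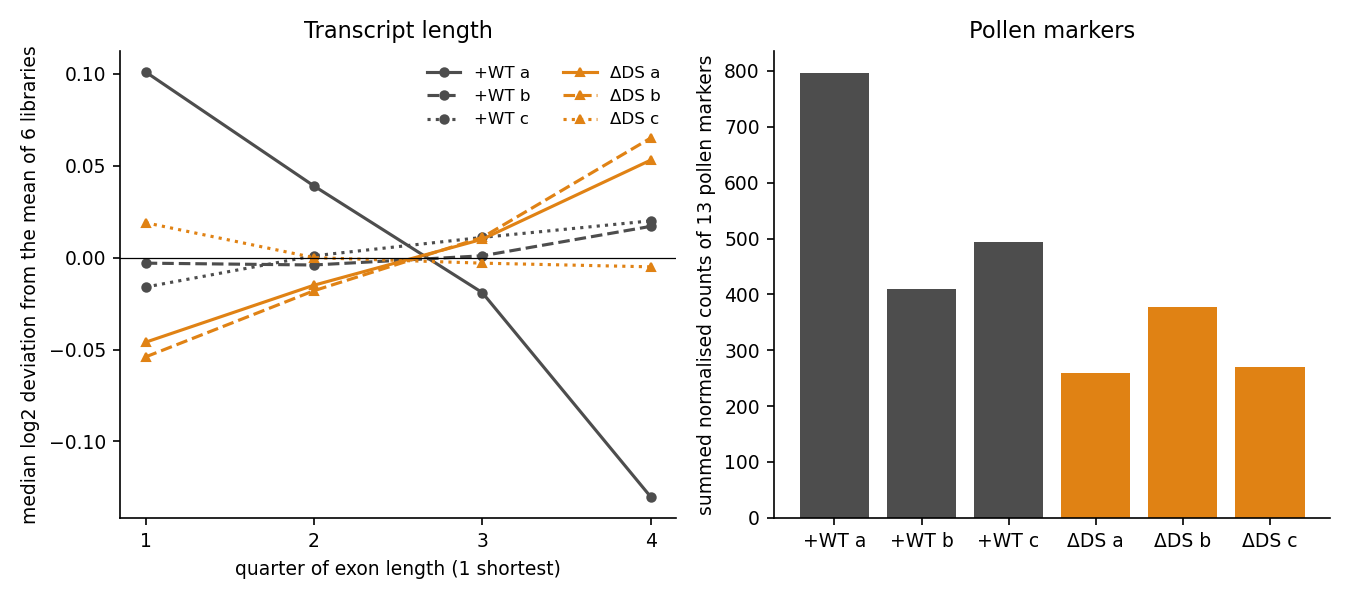
Left, median log2 deviation of each library from the mean of the 6 libraries in 4 classes of exon length, for genes with a mean of at least 100. Right, summed normalised counts of the 13 measured pollen markers in each library. The library named +WT a falls most steeply with length and has the highest pollen sum.

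As a short reference, the dry calls were looked up in the other conditions, which come from other libraries. Of the 507 genes lower in dry ΔDS seeds, 312 (61.5%) were also called lower in the imbibed table and 226 (44.6%) in the salt table. These are 8.38% and 17.7% of the genes of the set called lower there. Of the 477 genes higher in dry seeds, 113 (23.7%) were called higher in the imbibed table, 155 (32.5%) were called lower there, and 130 (27.3%) were called higher in salt. Of all genes tested there, 21.3% were called higher and 19.5% lower after imbibition, and 6.98% higher and 6.99% lower in salt. Within the set of 15625 genes the imbibed shares were 18.4% higher and 23.8% lower. For dry, imbibed and salt seeds in turn, the authors' deposited tables gave 0.92, -0.57 and 0.63 for the reductase gene APR2 and 6.45, 7.24 and 6.68 for NHL22. GASA2 was at -0.85, -2.49 and -1.25 in the authors' deposited tables. Differences between conditions were not tested here.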

How the data were processed

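RNA-seq of 3 dry ΔDS and 3 dry +WT libraries was used. Per the submitters' processing notes HISAT2, DESeq2 and TAIR10 were used, without versions, and the counter, annotation and strandedness are not stated there. The mean deposited by the authors is a signal, normalised counts averaged over libraries. The fold change and its SE are deposited on the log2 scale, the authors' Wald statistic column is a score, and the p-values are those deposited by the authors.

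Read counts per library were derived here from the authors' summary columns. Whole-number sets giving the deposited mean to its 15 digits were listed, and the set was kept whose negative binomial fit, with the iterations of DESeq2 as the authors used it, returned the deposited fold change (within 1e-12, or 3e-14 from a mean of 1000) at the deposited SE. Means above 40000 were not attempted, and search settings were tuned while this was built. Size factors recomputed from the derived reads were within 0.30% of those read from the table. The search itself used the latter, so this is not an independent check. Recovery and limma were also run on simulated data, but the outcome and the range of means covered are not given here. That run is therefore no check on the values per library printed for the most abundant genes.

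Calls are the authors' adjusted p under 0.05; DESeq2 was not rerun. Limma 3.58.1 (R 4.3.3) used log2(normalised count + 1) with a mean-variance trend and Benjamini-Hochberg adjustment. The set, the 30 gene lists and 24 product families were chosen with earlier results of these data known, and 3 lists after the values were seen. Named genes were FLOE1 to FLOE3 and FLOE1's neighbours, the 10 most abundant, the 5 largest changes each way in 4 abundance classes, the leading and most abundant members of lists, 2 per family and members of runs, with the text giving a part; other list and pseudogene members are named to show a list's range. RefSeq TAIR10.1 gave names, exon lengths and promoters, matching 15608 of 15625 genes.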

Additional observations from a re-analysis of the deposited data

How the results depend on the processing

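No named gene that was called turned its direction under an alternative that gave it a value, but calls were lost. Genes near 0 without a call can change sign, since scaling by library totals moves all fold changes up by 0.08. The 184 named genes include many that were not called as deposited and so had no call to lose. Of the named genes 88 lost their call at a 2-fold minimum and 19 with the length trend removed. Scaling by library totals cost 15 calls and adjusting p-values anew 5. In limma, which covers only named genes with values per library, 25 lost theirs without ΔDS library a and 27 without ΔDS library b. A 2-fold minimum left 72 genes higher and 23 lower, and scaling by library totals gave 1210 higher and 249 lower. Limma with all 6 libraries gave 622 higher and 583 lower, and without 1 library at a time 278 to 720 higher and 257 to 667 lower. These fits also have fewer libraries, so lost power and the part of a single library cannot be told apart. The deposited counts, from another test, were 477 higher and 507 lower. P-values adjusted anew over every gene that has one, a minimum mean of 50, no minimum mean, centring on the median gene and removal of the length trend kept both counts within 1.5 times. No paired analysis was possible because the derived libraries carry no replicate numbers. Limma and the leave-one-out fits were chosen after seeing the data and could not be run for 84 genes without values per library, among them most storage and LEA genes. Depth limits low genes most, where the median SE of 0.357 lets only large changes pass.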
